A study of Mus musculus with 6 samples.

Results

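The genes described here are 8 of the 56691 genes in the liver RNA-seq table. They are *Mlxipl*, which encodes the carbohydrate response element binding protein ChREBP, its paralog *Mlxip* (MondoA), their shared dimer partner *Mlx*, *Mxd4*, which encodes a repressor of the MAX and MLX network, the feedback genes *Txnip* and *Arrdc4*, the ChREBP-responsive repressor gene *Klf10*, and *Tcfl5*, another basic helix-loop-helix gene. They are listed by name for their known roles, by a rule that uses no measured value, although earlier results of these data were known when the list was made. Of the 8, 7 passed the expression minimum (a mean of at least 1 FPKM, read counts scaled by exonic length and by the library total) and were tested among 10866 genes. *Tcfl5* did not pass.

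Livers came from 2 groups of pregnant mice that received the high-fructose diet (HFrD; 70% fructose, fat at 10 kcal%) starting on Day 0 and lasting until sacrifice on Day 17. KPF mice (3 libraries, replicates 1 to 3) were hepatocyte-specific knockouts labelled hChrebp-KO. They carried Chrebp flox/flox together with Cre driven by the albumin promoter, so that only cells with an active albumin promoter were expected to lose the floxed exon. WPF mice (3 libraries, replicates 2 to 4) are labelled wild type but, by the study's methods, were Chrebp flox/flox without Cre, and so both groups carried the floxed alleles, were pregnant and received fructose. Both groups were mated with Chrebp flox/flox males, and the age of the dams is not given in the sources used here.

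ChREBP is activated by sugar metabolites and binds DNA as a heterodimer with MLX at carbohydrate response elements, which are pairs of E-box-like motifs separated by a short spacer. In hepatocytes it is known for raising genes of glycolysis, fructose breakdown and fatty acid synthesis. Its gene has an upstream start, from which the short and highly active ChREBPβ form is made, and a downstream start, from which ChREBPα is made. *Txnip* and *Arrdc4* encode alpha-arrestins that restrain glucose uptake and are classical targets of both MondoA and ChREBP, and so are read as a gauge of their activity.

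Exon 2 of *Mlxipl* is the stretch that the study's methods name as deleted in KPF hepatocytes. It lies at chr5:135113627-135113733 of GRCm38 (GENCODE M21, plus strand), is 107 bases long, is one of 17 exons of a 3622-base transcript, and leaves a remainder of 2 bases when divided by 3. The sequence is shown because the knockout acts on it, while the read counts were summed over the whole gene.
Mlxipl exon 2: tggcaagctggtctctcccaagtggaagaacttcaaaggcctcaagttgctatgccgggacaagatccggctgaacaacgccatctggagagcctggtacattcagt

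This exon makes up 1.93% of the 5538 exonic bases over which *Mlxipl* reads were counted. The whole-gene count therefore does not check the deletion, and no count per exon was analysed here.

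Promoter windows (the 250 bases before a transcription start, from RefSeq, GRCm38.p6) were found for 7 of the 8 genes, *Klf10* having no entry. They were searched for the E-box CACGTG and for a pair of such E-boxes with a spacer of 5 bases and up to 2 mismatches over the pair. Both motifs read the same on both strands, and a pair without mismatch would also hold the single E-box. The windows printed here, with the matched motif in capitals, were picked because they belong to the gene with its own autoregulated start and to the alpha-arrestin genes whose levels are compared below.
Mlxipl, upstream start, chr5:135089640-135089889, plus strand: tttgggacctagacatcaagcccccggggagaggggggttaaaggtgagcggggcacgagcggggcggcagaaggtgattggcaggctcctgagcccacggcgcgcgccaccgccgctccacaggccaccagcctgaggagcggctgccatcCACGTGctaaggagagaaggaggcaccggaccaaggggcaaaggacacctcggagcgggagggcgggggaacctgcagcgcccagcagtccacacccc
Txnip, chr3:96557707-96557956, plus strand: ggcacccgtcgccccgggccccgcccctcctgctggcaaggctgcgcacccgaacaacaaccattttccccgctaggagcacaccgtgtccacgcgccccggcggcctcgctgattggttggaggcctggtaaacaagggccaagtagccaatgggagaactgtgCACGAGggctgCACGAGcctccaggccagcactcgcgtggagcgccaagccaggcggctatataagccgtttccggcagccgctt
Arrdc4, chr7:68749239-68749488, minus strand: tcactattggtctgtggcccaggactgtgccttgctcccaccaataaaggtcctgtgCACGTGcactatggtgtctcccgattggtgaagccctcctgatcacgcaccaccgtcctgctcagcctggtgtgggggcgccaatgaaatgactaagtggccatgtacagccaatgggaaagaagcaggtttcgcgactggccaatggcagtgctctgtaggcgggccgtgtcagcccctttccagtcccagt

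The *Mlxipl* window before the upstream start held 1 E-box, beginning at base -98 from the start. The window before the downstream start, which lies 17001 bases further along the gene, held no match. The *Txnip* window held the pair with 2 mismatches, beginning at base -85, and *Arrdc4* held 1 single E-box at base -193. Single E-boxes also lay in the windows of *Mlx* (base -40) and *Mxd4* (base -219), and neither motif was found in the windows of *Mlxip* and *Tcfl5*. Over all 32851 mouse promoter windows of this length, 6.02% held the single E-box and 0.779% held the pair. A match is a description of the letters, and binding was not measured.

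The libraries held between 10694496 and 14496630 counted reads, and each KPF library was smaller than each WPF library. The hepatocyte gene *Alb* took 6.38% to 8.11% of the reads in KPF and 9.92% to 13.25% in WPF. After the TMM scaling used below, the *Alb* levels of the groups overlapped. None of the 8 hepatocyte markers was called changed by the rule given below, which 9.82% of all genes tested met. KPF replicate 2 stood apart by striated muscle genes, whose 4 markers summed to 2251 CPM (read counts per library after TMM scaling of its total) against 0.953 to 8.29 CPM in the other 5 libraries. The 8 stellate cell and fibroblast markers summed to 175 to 711 CPM in KPF and 106 to 132 CPM in WPF. Of the 8, 5 were called higher (*Col1a1*, *Col1a2*, *Col3a1*, *Des* and *Reln*), where 5.83% of all genes tested were. Only *Lrat* had a log2 fold change below 0 (-0.35). *Des*, one of the 5 and a gene that striated muscle also expresses, made up 486 CPM of the sum in KPF replicate 2, and its groups overlapped. The other 7 markers summed to 165 to 365 CPM in KPF against 95.3 to 124 CPM in WPF. Adipocyte markers summed to 2.21 to 20.6 CPM in KPF and 0.778 to 1.58 CPM in WPF, with *Lep* at 0 reads in all 6 libraries and *Adipoq* at 0 in KPF replicate 3 and WPF replicates 2 and 4. WPF replicate 4 stood apart from the other WPF libraries in the ChREBP target genes described below. The part of these differences in the values of the 8 genes was not tested.

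By edgeR's quasi-likelihood test, 0 of the 10866 genes had an adjusted p under 0.05, the smallest adjusted p being 0.397 (background 0.0%), while 1177 genes had an unadjusted p under 0.05 and DESeq2 called 156 genes. A gene is therefore called changed here at an unadjusted p under 0.05 with at least a 1.5-fold difference, which 1067 genes met (9.82%), of which 634 (5.83%) were higher and 433 (3.98%) lower in KPF. Scaling by library totals turned that split to 371 higher and 729 lower, limma on log2(FPKM + 1) to 238 and 552, and limma on log2(FPKM + 0.1) to 257 and 681. Of the 7 tested genes of the ChREBP group, 0 were called in either direction. Their log2 fold changes were above 0 for 3 and below 0 for 4 with a median of -0.01, beside a median of 0.02 over all genes tested.

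Per exonic length of the gene, *Mlxipl* was by far the most abundant of the group, with a mean over the 6 libraries of 147 FPKM, and it ranked between 130 and 940 among all genes of a library. *Mlx* followed at 9.73 FPKM, *Txnip* at 6.81 FPKM and *Klf10* at 6.05 FPKM. *Arrdc4* at 2.45 FPKM and *Mxd4* at 2.36 FPKM came next, and *Mlxip* was the lowest of the tested genes at 1.31 FPKM. *Mlxipl* was above *Mlx* in 6 of 6 libraries, and *Mxd4* was above *Mlxip* in 6 of 6. The neighbours in between crossed over, as *Mlx* exceeded *Txnip* in 5 of 6 libraries, *Txnip* exceeded *Klf10* in 4, *Klf10* exceeded *Arrdc4* in 4 and *Arrdc4* exceeded *Mxd4* in 3, so these orders do not stand beyond the spread between libraries.

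**Figure D1:**
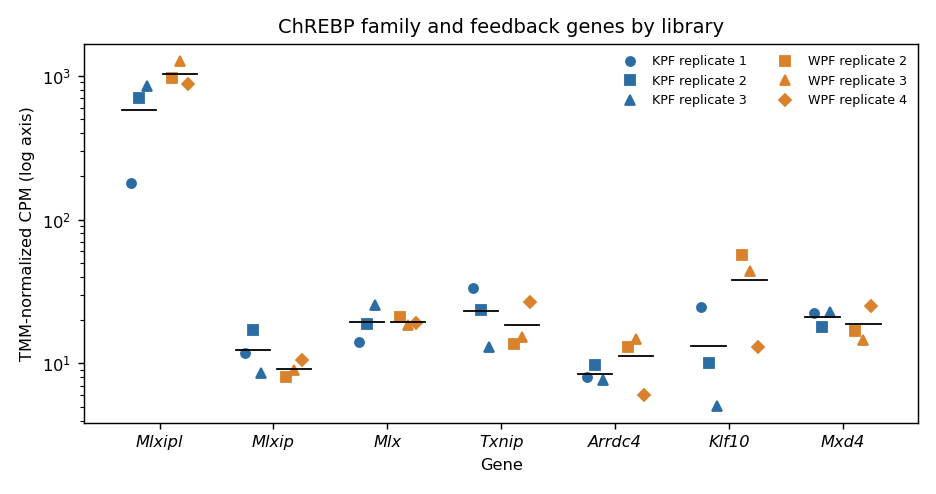
TMM-normalized CPM (log axis) of the 7 tested genes in each library, with KPF in blue, WPF in orange, the replicate number as the symbol and the group mean as a line. Every KPF point of Mlxipl lies below every WPF point with KPF replicate 1 far down at 179 CPM, and the groups of the other 6 genes overlap.

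*Mlxipl* (ENSMUSG00000005373, chr5:135118744-135167236, plus strand, GRCm39) is the targeted gene. Its normalized counts were 179 CPM in KPF replicate 1, 699.6 CPM in KPF replicate 2 and 849 CPM in KPF replicate 3. In WPF replicates 2, 3 and 4 they were 961, 1260 and 879 CPM. All KPF libraries were below all WPF libraries, KPF replicate 1 stood far below the other KPF libraries, and KPF replicate 3 came within reach of WPF replicate 4. Of all genes tested, 8.15% had KPF libraries wholly below the WPF libraries and 7.55% wholly above, and of the 7 tested genes of the group only *Mlxipl* had no overlap. The group means were 576 ± 351 CPM for KPF against 1033 ± 201 CPM for WPF (SD, n = 3 each).

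The fitted level of *Mlxipl* in KPF was 0.557 times that in WPF, with a 95% interval from 0.237 to 1.31. The log2 fold change was -0.84 (SE 0.53, adjusted p = 0.584, edgeR's quasi-likelihood test), and the exact two-sided permutation test gave p = 0.1, the smallest value that 3 against 3 libraries allow. The KPF libraries spanned 4.73-fold among themselves and the WPF libraries 1.43-fold. The SD of log2 CPM in KPF was larger than that of 93.9% of tested genes, against 46.8% in WPF. Without KPF replicate 1 the log2 fold change was -0.415 (adjusted p = 0.802, edgeR). In bulk liver, fewer hepatocytes and less *Mlxipl* RNA per hepatocyte cannot be told apart, and RNA from cells without Cre is counted too.

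*Mlx* encodes the obligate partner with which ChREBP and MondoA bind DNA (ENSMUSG00000017801, chr11:100978103-100983033, plus strand). It was counted at 14.1, 18.9 and 25.3 CPM in KPF replicates 1, 2 and 3 against 21.1, 18.4 and 19.1 CPM in WPF replicates 2, 3 and 4. The KPF libraries lay on both sides of the narrow WPF range. The means were 19.4 ± 5.6 CPM for KPF against 19.5 ± 1.38 CPM for WPF (SD, n = 3 each), and the log2 fold change was -0.01 (95% interval -0.58 to 0.56, adjusted p = 0.989, edgeR). Its sign turned under 5 of 15 alternatives, so no direction is given, and the interval still allows differences of up to about 1.48-fold upward. On the FPKM scale the ratio of *Mlxipl* to *Mlx* was 4.59, 13.3 and 12.1 in KPF replicates 1 to 3. It was 16.4, 24.7 and 16.6 in WPF replicates 2 to 4. *Mlxipl* RNA thus exceeded *Mlx* RNA per exonic length in every library.

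*Mlxip* encodes MondoA, the glucose-sensing paralog that is best known from muscle (ENSMUSG00000038342, chr5:123532861-123595995, plus strand). Its counts were low, from 89 to 194 reads per library. It stood at 11.7, 17.2 and 8.55 CPM in KPF replicates 1, 2 and 3 against 8.04, 8.99 and 10.5 CPM in WPF replicates 2, 3 and 4. KPF replicate 2 was the highest, KPF replicate 3 lay within the WPF range, and the groups overlapped. The log2 fold change was 0.44 (SE 0.30, 95% interval -0.25 to 1.13, adjusted p = 0.611, edgeR; exact permutation p = 0.3). KPF replicate 2 is also the library with the muscle genes at 2251 CPM, and without it the log2 fold change was 0.14 (adjusted p = 0.883, edgeR).

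The ratio of *Mlxipl* to *Mlxip* on the FPKM scale was 23, 61.3 and 150 in KPF replicates 1, 2 and 3. It was 180, 211 and 125 in WPF replicates 2, 3 and 4. ChREBP transcripts thus exceeded MondoA transcripts per exonic length in all 6 libraries, with KPF replicates 1 and 2 below all WPF libraries and KPF replicate 3 within their range.

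*Mxd4* encodes MAD4, a repressor that pairs with MAX and MLX (ENSMUSG00000037235, chr5:34331227-34345064, minus strand). It was counted at 22.3, 17.9 and 22.7 CPM in KPF replicates 1 to 3 against 16.7, 14.5 and 25.1 CPM in WPF replicates 2 to 4. WPF replicate 4 was the highest of all libraries, and the other WPF libraries were the lowest. The log2 fold change was 0.16 (95% interval -0.43 to 0.75, adjusted p = 0.829, edgeR), it was 0.42 without WPF replicate 4, and with library totals in place of TMM it was -0.002.

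*Txnip* encodes the thioredoxin-interacting protein, an alpha-arrestin (ENSMUSG00000038393, chr3:96465273-96469199, plus strand). Its levels were 33.2, 23.3 and 13.1 CPM in KPF replicates 1, 2 and 3. They were 13.6, 15.2 and 26.6 CPM in WPF replicates 2, 3 and 4. KPF replicate 1, with the lowest *Mlxipl*, had the highest *Txnip*, WPF replicate 4 came next, and KPF replicate 3 was the lowest. The means were 23.2 ± 10.1 CPM for KPF against 18.5 ± 7.12 CPM for WPF (SD, n = 3 each), and the log2 fold change was 0.33 (95% interval -0.58 to 1.24, adjusted p = 0.777, edgeR; exact permutation p = 0.7). Without KPF replicate 1 it was -0.02 and without WPF replicate 4 it was 0.68.

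*Txnip* lies opposite *Gm15441*, an antisense RNA gene, which shares 606 of its 3123 exonic bases (19.4%, GENCODE M21). *Gm15441* had 247 reads in KPF replicate 1, the library with the highest *Txnip*, and 3 to 14 reads in the other 5 libraries. The strand setting of the counting is not given in the sources used here, so reads of the shared stretch cannot be assigned to one strand with certainty, and their part in the *Txnip* value was not tested. *Mlx* shares 19.3% of its exonic bases with *Psmc3ip* on the other strand, which had 4 to 12 reads per library.

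*Arrdc4* encodes the other sugar-responsive alpha-arrestin of the group (ENSMUSG00000042659, chr7:68386743-68398989, minus strand). It was counted at 8.1, 9.73 and 7.69 CPM in KPF replicates 1, 2 and 3, from 80 to 110 reads. In WPF replicates 2, 3 and 4 it was counted at 13, 14.8 and 6.03 CPM, from 103 to 211 reads. WPF replicates 2 and 3 were above every KPF library and WPF replicate 4 was below all of them. The means were 8.5 ± 1.08 CPM for KPF against 11.3 ± 4.63 CPM for WPF (SD, n = 3 each), and the log2 fold change was -0.40 (95% interval -1.23 to 0.42, adjusted p = 0.694, edgeR; exact permutation p = 0.5). Without WPF replicate 4 it was -0.72 (unadjusted p = 0.0271, adjusted p = 0.397, edgeR), without WPF replicate 3 it was -0.16 (unadjusted p = 0.701, edgeR) and without WPF replicate 2 it was -0.29 (unadjusted p = 0.509, edgeR).

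The pair of alpha-arrestin genes did not keep a fixed ratio. *Txnip* exceeded *Arrdc4* on the FPKM scale 5.3-fold, 3.1-fold and 2.2-fold in KPF replicates 1, 2 and 3. The ratio was 1.35 and 1.33 in WPF replicates 2 and 3 and 5.71 in WPF replicate 4. The lowest ratios were those of WPF replicates 2 and 3, and the highest those of WPF replicate 4 and KPF replicate 1.

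*Klf10* encodes a zinc finger repressor that answers to glucose and to TGFβ and is known to restrain ChREBP target genes (ENSMUSG00000037465, chr15:38291707-38300950, minus strand). It was counted at 24.5, 10.1 and 5.09 CPM in KPF replicates 1, 2 and 3. In WPF replicates 2, 3 and 4 it was counted at 56.3, 44 and 12.9 CPM. WPF replicates 2 and 3 were above every KPF library, while WPF replicate 4 lay between KPF replicates 1 and 2. The means were 13.2 ± 10.1 CPM for KPF against 37.8 ± 22.4 CPM for WPF (SD, n = 3 each).

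With all 6 libraries the log2 fold change was -1.51 (SE 0.67, 95% interval -3.07 to 0.05), the largest in size of the 7 tested genes, but without KPF replicate 3 that of *Mlxipl* was larger (-1.24 against -1.13). The fitted KPF level was 0.351 times the WPF level, with an interval from 0.119 to 1.03. The test did not pass (unadjusted p = 0.0558, adjusted p = 0.464, edgeR; exact permutation p = 0.2). *Klf10* also varied strongly within groups, by 4.81-fold in KPF and 4.35-fold in WPF, a log2 SD above that of 92.8% and 95.6% of tested genes. It stayed lower in KPF under all 15 alternatives and had an unadjusted p under 0.05 in 9 of them, with the smallest adjusted p of 0.0796 when the replicate number was a block (log2 fold change -2.78). The contrast of that fit rests on replicates 2 and 3 of each group alone. It takes nothing from KPF replicate 1 (24.5 CPM), the highest KPF library, or WPF replicate 4 (12.9 CPM), the lowest WPF library. Leaving out 1 library enlarged the log2 fold change in 2 fits, to -1.93 without WPF replicate 4 (adjusted p = 0.322, edgeR) and to -2.31 without KPF replicate 1 (adjusted p = 0.542, edgeR). It shrank in the other 4 fits, to -1.11 without WPF replicate 2, -1.13 without KPF replicate 3, -1.35 without KPF replicate 2 and -1.39 without WPF replicate 3, with unadjusted p from 0.119 to 0.176 (edgeR).

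*Tcfl5* (ENSMUSG00000038932, chr2:180263749-180284501, minus strand) had 0 reads in 5 libraries and 1 read in WPF replicate 2. In the 5 libraries at 0, that count allows up to 3 reads, or 0.207 to 0.281 CPM by their totals, counting error only. A level below this limit would be missed at this depth, and no fold is given because both groups lie under it.

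**Figure D2:**
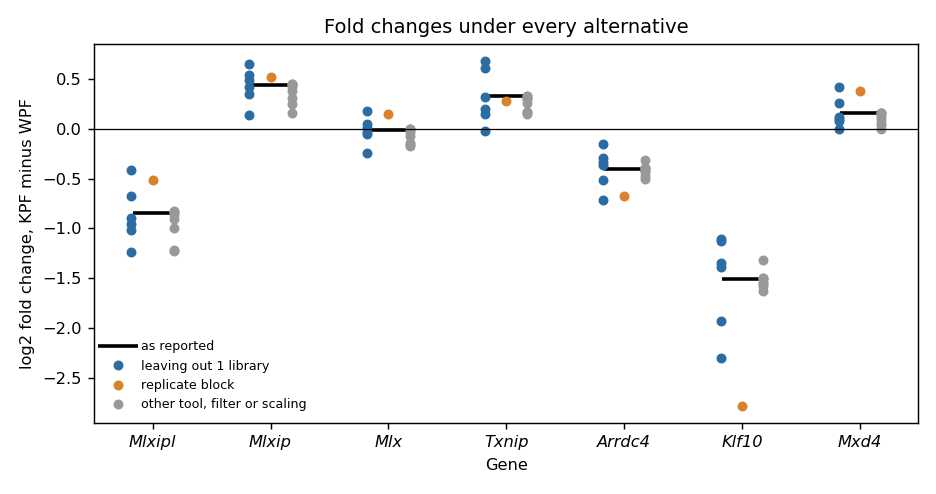
The log2 fold change (KPF minus WPF) of each of the 7 tested genes as reported (black line) and under 15 alternatives, which are leaving out 1 library (blue), the replicate block (orange) and another tool, filter or scaling (grey). Klf10, Mlxipl and Arrdc4 stay below 0 and Mlxip above 0 in every fit, while points of Mlx, Txnip and Mxd4 fall on both sides of 0.

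The metabolic genes that ChREBP is known to raise form the output of the network. Of 20 such genes, all tested, 14 were called lower in KPF and 0 higher, where 3.98% of all genes tested were called lower. All 20 had a log2 fold change below 0 (48.6% of all genes tested), with a median of -2.34. Several of these genes were already known to be lower in these data when the list was written, so the count is not independent evidence of its direction.

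The 4 targets with the smallest p were *Acacb*, *Pklr*, *Scd1* and *Me1*, with an adjusted p of 0.415 each (edgeR). *Acacb*, the acetyl-CoA carboxylase at the mitochondrial surface, was counted at 28.8, 42.5 and 68.6 CPM in KPF replicates 1 to 3 against 211, 399.6 and 133 CPM in WPF replicates 2 to 4 (log2 fold change -2.41, SE 0.50). *Pklr*, the liver pyruvate kinase, was counted at 11.1, 18.3 and 11.9 CPM in KPF against 149, 137 and 24.5 CPM in WPF (log2 fold change -2.90, SE 0.64). Both stood lower in every KPF library than in any WPF library, with WPF replicate 4 nearest to KPF.

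*Scd1*, the stearoyl-CoA desaturase, was counted at 223, 96.3 and 203 CPM in KPF against 5680, 7892 and 344 CPM in WPF (log2 fold change -4.74, SE 1.05). *Me1*, the malic enzyme that supplies NADPH for fatty acid synthesis, was counted at 6.86, 9.2 and 9.8 CPM in KPF against 92.4, 157 and 14.7 CPM in WPF (log2 fold change -3.35, SE 0.76). Here WPF replicate 4 stood close above the KPF libraries and far below the other WPF libraries.

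Over the whole target list, WPF replicate 4 was the lowest WPF library for 20 of 20 genes. WPF replicates 2 and 3 were above all KPF libraries for 19 of the 20, and WPF replicate 4 for 10. For those 10 all KPF libraries were below all WPF libraries, as held for 8.15% of all genes tested. For the counts of 20 and 19, no share over all genes was computed. The 20 genes summed to 5151, 4528 and 4201 CPM in KPF replicates 1 to 3 and to 21220, 26030 and 4234 CPM in WPF replicates 2 to 4. *Mlxipl*, *Klf10* and *Arrdc4* were at their lowest WPF level in WPF replicate 4, and *Mlxip*, *Txnip* and *Mxd4* at their highest. *Mlxipl* still exceeded every KPF library there (879 CPM), and *Klf10* and *Arrdc4* did not. Without WPF replicate 4, 16 of the 20 targets were called lower, and without WPF replicates 2 or 3 in turn, 11 were. Of all genes tested in the same fits, 533 of 10741 were called lower without WPF replicate 4. The count over all genes was 290 of 11021 without WPF replicate 2 and 245 of 10893 without WPF replicate 3.

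**Figure D3:**
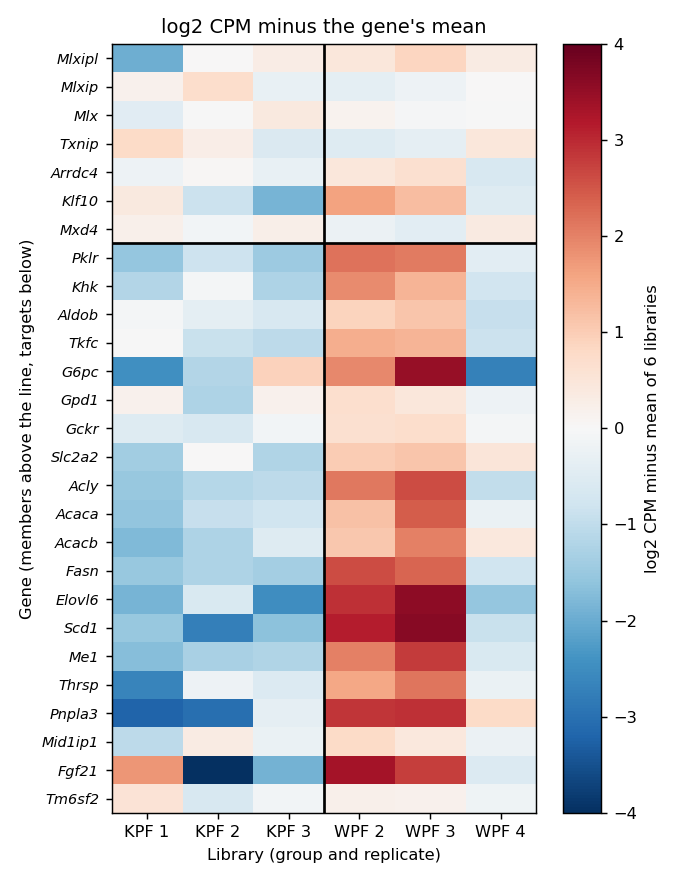
Colours give log2 CPM minus the mean of the gene over the 6 libraries (scale -4 to 4), for the 7 tested genes above the line and the 20 target genes below it, with KPF libraries on the left and WPF libraries on the right. WPF replicates 2 and 3 are high for most targets and for Klf10, WPF replicate 4 is lower than both for every target, and Mlxipl is lowest in KPF replicate 1.

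**Figure D4:**
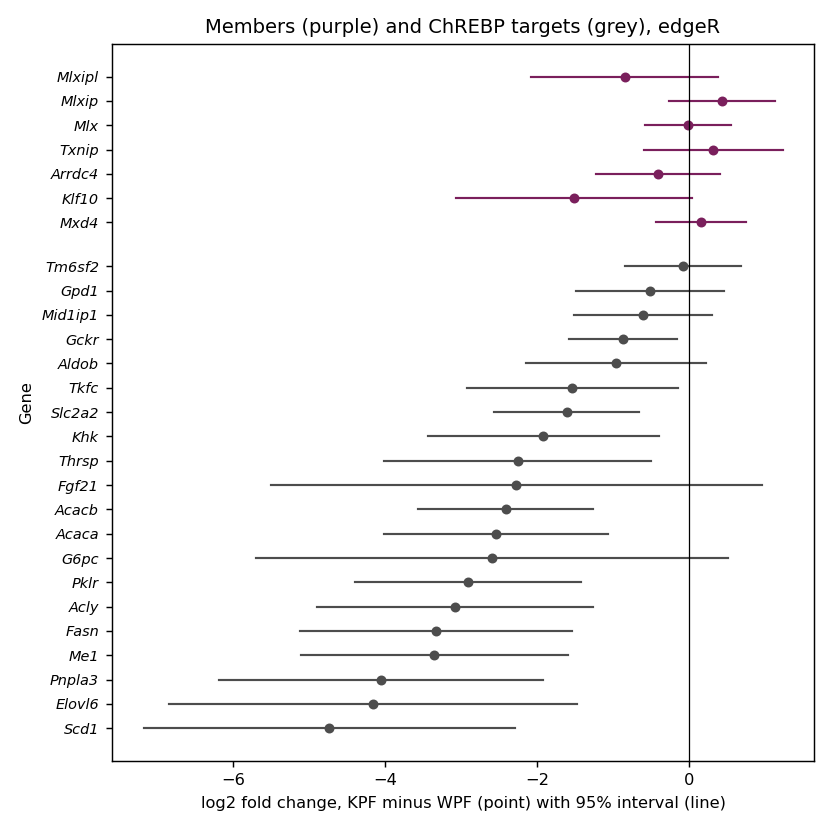
Points give the log2 fold change (KPF minus WPF) and lines its 95% interval from edgeR for the 7 tested genes (purple) and the 20 target genes (grey). All 7 intervals of the upper group cross 0, and the targets reach down to -4.74 for Scd1.

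On the MAX and MYC side of the network, whose proteins share E-box sites with MLX dimers, 5 of 9 genes were tested and 1 was called lower, where 3.98% of all genes tested were, so that nothing about the list is read from it. *Myc*, the growth-promoting factor, was counted at 4, 3.36 and 4.51 CPM in KPF replicates 1 to 3 against 7.43, 5.34 and 8.84 CPM in WPF replicates 2 to 4 (log2 fold change -0.86, SE 0.31, adjusted p = 0.43, edgeR). The log2 fold changes of *Mnt* and *Mga*, which encode MAX-binding repressors, were -0.55 and -0.30, that of *Mxi1*, another MAX partner, was 0.14, and none of these was called. The list's median was -0.3.

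Among 26 regulators and cofactors of ChREBP, such as nuclear receptors, O-GlcNAc enzymes, acetyltransferases and 14-3-3 proteins, 25 were tested, with a median log2 fold change of -0.14. The 1 called lower is close to the share over all genes tested (3.98%), and it was *Sirt1*, the NAD-dependent deacetylase (log2 fold change -0.71, SE 0.27, adjusted p = 0.438, edgeR). *Hcfc1*, whose product recruits O-GlcNAc transferase to ChREBP, had -0.48 and stayed under the 1.5-fold minimum, and *Ppp2cb* (a catalytic subunit of protein phosphatase PP2A) and *Ywhag* (a 14-3-3 protein) had -0.56 and -0.43 without being called.

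Of 11 other arrestins and thioredoxin system genes, 9 were tested, with 1 called higher (5.83% of all genes tested), 2 called lower (3.98% of all genes tested) and a median of -0.17. *Arrb2*, beta-arrestin-2, was higher in KPF (130, 90.8 and 67.9 CPM in replicates 1 to 3, log2 fold change 0.85, SE 0.29), and *Txnrd1* and *Txnrd3*, thioredoxin reductases, were lower with -0.65 and -0.84 (adjusted p = 0.43, 0.43 and 0.456, edgeR). *Arrdc2*, an alpha-arrestin like *Arrdc4*, had 0.63 and was not called. In the KLF family without *Klf10*, 8 of 16 genes were tested and 0 were called, with a median of 0.11. *Klf3*, *Klf15*, *Klf1* and *Klf9*, the family members with the smallest p, had log2 fold changes of -0.23, 0.46, 0.27 and 0.16.

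The genes whose profile over the 6 libraries was nearest to *Mlxipl*, by the root mean square difference of centred log2 CPM, were *Ndufab1-ps* (0.252), *Gm20522* (0.263) and *Nfe2l2* (0.283). *Ndufab1-ps* and *Gm20522* stood at only 0.953 and 0.286 CPM in KPF replicate 1, so their levels there rest on few reads. *Nfe2l2*, which encodes the oxidative stress factor NRF2, was counted at 32.6, 89.9 and 125 CPM in KPF replicates 1 to 3 against 157, 305 and 143 CPM in WPF replicates 2 to 4. It shared with *Mlxipl* the lowest level in KPF replicate 1 and the highest in WPF replicate 3. The nearest genes to *Txnip* were *Gm11423* (0.138), *Ccnd1* (0.156) and *Gm13375* (0.156). *Ccnd1*, the gene of cyclin D1, was counted at 11.4, 7.7 and 5.76 CPM in KPF against 5.79, 5.9 and 10.9 CPM in WPF, high in KPF replicate 1 and WPF replicate 4 like *Txnip*.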

How the data were processed

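Poly(A) RNA of the liver was sequenced as paired reads by a company that the authors engaged. The deposited table gives raw read counts and FPKM values per gene and library, with the exonic length of each gene. The submitters' processing notes list cutadapt 1.9.1, HISAT2 2.2.1, HTSeq 0.6.1, DESeq2 and the GRCm39 build, and the annotation release and strand setting are not given in the sources used here. The deposited FPKM equalled the count scaled by exonic length and library total in 100.0% of values within 0.0051. Gene symbols came from a reference table of gene names (52073 of 56691 gene IDs matched). Gene coordinates are those of the table (GRCm39), and sequences and shared exons were read on GRCm38, with no conversion.

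Counts were tested with edgeR 4.0.16 (R 4.3.3; TMM, quasi-likelihood test, 3 KPF against 3 WPF libraries, mean FPKM of at least 1), with Benjamini-Hochberg adjustment over 10866 genes. Exact two-sided permutation tests were run on log2 CPM (SciPy 1.17.1). The labels do not state that each library is a separate dam, while the paper's figure legend gives n = 3 and counts biological replicates. The p values measure the spread between libraries. No pair of libraries of the same group agreed within sampling noise (chi-square per gene of 48.1 or more).

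Alternatives were DESeq2 1.42.0, its size factors, library totals, other filters, limma 3.58.1 on log2(FPKM + 1) and log2(FPKM + 0.1), leaving out each library, and the replicate number as a block. The genes and lists were chosen with earlier results of these data known. All 8 genes were named, and of each pathway list up to 4 genes with the smallest p, and the 3 genes nearest in profile to *Mlxipl* and to *Txnip*. *Gm15441*, *Psmc3ip* and the single marker genes were named after their values were seen. Marker lists not described in the report gave 0 called genes among 8 Kupffer cell, 2 cholangiocyte, 1 lymphocyte and 1 exocrine pancreas genes tested, and 1 higher among 7 endothelial genes. All 4 muscle markers were called higher, although the groups overlapped for each of them. *Ckm*, for example, stood at 517 CPM in KPF replicate 2 but at 0.19 and 0.096 CPM in KPF replicates 1 and 3. In WPF replicates 2 to 4 it stood at 0.95, 1.05 and 0.41 CPM. The 1 tested adipocyte marker was called higher too. Of all genes tested, 5.83% were called higher and 3.98% lower. The scripts were tested on simulated data.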

Additional observations from a re-analysis of the deposited data

How the results depend on the processing

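None of the 7 tested genes passed an adjusted p of 0.05 under any alternative that gave one. At a minimum of 5 FPKM, *Mlxip*, *Arrdc4* and *Mxd4* fell below the filter and had no adjusted p. *Mlxipl*, *Mlxip*, *Arrdc4* and *Klf10* kept their direction in all 15 alternatives. No fold change of *Tcfl5* is given under any setting, because it had 0 or 1 read in each library. The sign of *Mlx* turned at a minimum of 5 FPKM (0.001) and with the replicate block (0.152), and ranged from -0.245 to 0.179 when 1 library was left out, above 0 without KPF replicate 1 (0.179), KPF replicate 2 (0.003) or WPF replicate 2 (0.046). *Txnip* ranged from -0.02, without KPF replicate 1, to 0.679, without WPF replicate 4. *Mxd4* was -0.002 with library totals. Leaving out 1 library moved *Mlxipl* between -1.236 and -0.415, *Mlxip* between 0.136 and 0.647, *Arrdc4* between -0.717 and -0.157 and *Klf10* between -2.307 and -1.109. The number of targets called lower lay between 11 and 17 over the alternatives. Over the same alternatives, the count of all genes called lower lay between 205 of 4757 tested and 910 of 26984 tested.

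The counts over all genes depended more on the settings, and the cause was not tested. Genes with an adjusted p under 0.05 were 286 without a filter, 156 by DESeq2 and 1 by limma on log2(FPKM + 0.1), and 0 to 5 when 1 library was left out (5 without WPF replicate 4). Genes called higher and lower were 1576 and 910 without a filter, 255 and 205 at a minimum of 5 FPKM, 371 and 729 with library totals, 238 higher by limma on log2(FPKM + 1), and 257 and 681 by limma on log2(FPKM + 0.1). Leaving out 1 library gave 331 to 922 higher and 245 to 712 lower, the lowest of both without WPF replicate 3 and the highest of both without KPF replicate 3. It gave 278 lower without KPF replicate 1 and 364 higher without WPF replicate 2. Library totals moved the median log2 fold change of all genes from 0.016 to -0.121, and changes are relative to it.

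The labels of both groups share replicate numbers 2 and 3 only. Deviations of same-numbered libraries correlated at 0.087 and -0.052, so the numbers were not taken to pair the samples. With the replicate block, 680 genes were higher and 551 lower, 17 targets were called lower, and *Klf10* had a log2 fold change of -2.782 (adjusted p = 0.0796, edgeR). The block leaves KPF replicate 1 and WPF replicate 4 without a partner, so its contrast rests on replicates 2 and 3 of each group. Depth limits *Tcfl5*.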
